A study of Rattus norvegicus with 8 samples.

Results

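Metallothioneins and the genes that move zinc across membranes were followed in the Achilles tendon of rats killed right after a treadmill run. The set held 6 genes, chosen by name: the metallothioneins Mt1, Mt2A and Mt3, the metal-sensing transcription factor Mtf1, the zinc exporter Slc30a1 and the zinc importer Slc39a14. All 6 were listed among the 15590 genes of the deposited expression table. The tissue was the right Achilles tendon of wild-type (WT) male SD rats aged 8 to 10 weeks. In the 0 h p.r. group (0 hours post-run, n = 4 libraries), rats had run uphill on a treadmill for 1 h, urged by airflow and, when they left the belt, by a mild electric stimulus. In the naïve control group (NC, n = 4 libraries), rats kept to their normal cage activity. Running and the prompting to run cannot be told apart in this design. The sources used here differ on when the controls were killed, so a shared time of day for both groups was not established. The comparison asked how gene expression in tendon differed right after running from that at rest.

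Metallothioneins are small cysteine-rich proteins that bind zinc and copper in the cytosol and buffer the free metal. Mt1 and Mt2A are made in most tissues and are known to respond to metals, glucocorticoids, cytokines and oxidants, whereas Mt3 is best known from the brain. MTF-1, the product of Mtf1, binds zinc and then short metal response elements in the promoters of metallothionein genes and of Slc30a1. ZnT1, the product of Slc30a1, carries zinc out of the cell, and ZIP14, the product of Slc39a14, carries zinc as well as iron and manganese into it. In liver, Mt1, Mt2A and Slc39a14 are classical acute phase genes downstream of interleukin 6.

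The promoters of the metallothioneins and of Slc30a1 are printed first, since they carry the elements that MTF-1 is known to bind. They come from RefSeq on the build GRCr8 and run from 250 bases before to 50 bases after the transcription start, 300 bases in all. Of the 6 genes, 5 had such a window, and Slc39a14 was the one without. The capitals mark the core of the metal response element, searched on both strands as TGCACNC or TGCGCNC. A match on the opposite strand shows as its reverse complement.
Mt1 (chr19:10832926-10833225, minus strand): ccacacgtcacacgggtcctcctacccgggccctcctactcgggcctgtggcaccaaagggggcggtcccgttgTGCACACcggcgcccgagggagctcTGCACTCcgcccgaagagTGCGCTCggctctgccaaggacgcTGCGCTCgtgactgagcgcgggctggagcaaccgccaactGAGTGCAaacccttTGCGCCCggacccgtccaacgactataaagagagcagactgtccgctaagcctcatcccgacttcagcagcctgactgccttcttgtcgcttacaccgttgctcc
Mt2A (chr19:10838659-10838958, minus strand): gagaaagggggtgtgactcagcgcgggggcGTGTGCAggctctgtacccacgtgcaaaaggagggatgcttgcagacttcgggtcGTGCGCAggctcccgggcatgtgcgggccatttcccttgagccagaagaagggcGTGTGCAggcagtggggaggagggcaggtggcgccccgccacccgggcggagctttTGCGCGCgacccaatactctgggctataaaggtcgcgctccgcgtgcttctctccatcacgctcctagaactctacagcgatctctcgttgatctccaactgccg
Mt3 (chr19:10856031-10856330, minus strand): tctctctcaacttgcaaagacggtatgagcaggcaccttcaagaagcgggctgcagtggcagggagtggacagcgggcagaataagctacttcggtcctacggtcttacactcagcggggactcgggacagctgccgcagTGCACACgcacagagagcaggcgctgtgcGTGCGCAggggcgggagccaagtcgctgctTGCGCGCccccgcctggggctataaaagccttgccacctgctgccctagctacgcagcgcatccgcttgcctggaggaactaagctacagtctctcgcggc
Slc30a1 (chr13:106021769-106022068, plus strand): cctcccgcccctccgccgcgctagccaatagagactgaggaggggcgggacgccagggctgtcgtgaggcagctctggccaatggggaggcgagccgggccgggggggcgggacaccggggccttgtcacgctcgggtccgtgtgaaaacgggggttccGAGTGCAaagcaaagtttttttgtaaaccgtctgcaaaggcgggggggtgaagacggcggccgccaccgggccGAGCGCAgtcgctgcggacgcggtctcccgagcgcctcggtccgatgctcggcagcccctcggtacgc

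The Mt1 window held 6 matches to the core, 5 on the strand of the gene and 1 on the other. At least 6 matches were found in 13 of 33469 RefSeq promoters of the same length (0.0388%). The Mt2A window held 4 matches, a number reached by 147 promoters (0.439%). The Mt3 window held 3, as at least did 562 promoters (1.68%). Those of Slc30a1 and Mtf1 held 2 each, a number reached by 2129 promoters (6.36%), and at least 1 match was found in 24.2% of all promoters. The core therefore occurred in each of the windows searched, at densities that fell from Mt1 to Mt2A to Mt3 and the others.

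A TATA box, searched as TATAAA on both strands, was found once in each metallothionein window and in neither of the other windows. It began 32 bases before the start of Mt1 and 31 bases before the starts of Mt2A and Mt3, and 14.2% of all promoters held at least 1. In Mt1 and Mt2A the core nearest to the start covered the same bases, from 55 to 49 before it. In Mt3 the nearest core lay from 51 to 45 bases before the start. The core of the antioxidant response element, searched as TGACNNNGC on both strands, was found once in the windows of Mt1, Mt2A and Slc30a1, in 2 places in that of Mtf1 and not in that of Mt3, against 12.1% of all promoters with at least 1. None of these motif matches overlapped another, and each is a description of the letters, not a bound site.

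**Figure D1:**
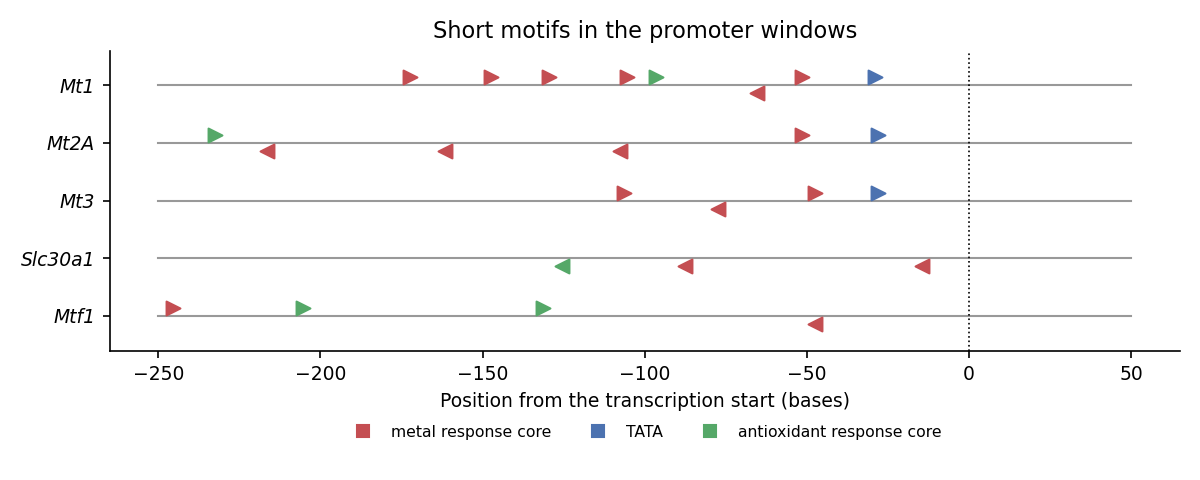
Matches to 3 short motifs in the RefSeq promoter windows of 5 genes, drawn by distance from the transcription start in bases. Right-pointing triangles above a line are on the strand of the gene and left-pointing triangles below it on the opposite strand, and the metal response core is seen 6 times in Mt1, 4 times in Mt2A, 3 times in Mt3 and 2 times each in Slc30a1 and Mtf1.

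RefSeq places Mt1, Mt2A, Mt3 and Mt4 next to each other on chromosome 19 of GRCr8, with Nup93 on one side. It also lists 4 metallothionein pseudogenes elsewhere in the genome, among them Mt1m, which the deposited table lists as a gene of its own, and the protein-coding Mt1f on chromosome X. Reads that match several of these copies can be split or dropped when they are counted, so the absolute levels of Mt1 and Mt1m are uncertain.

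Sequencing depth was similar between groups. The reads assigned to genes, recovered from the steps in the deposited values, numbered 11350560 to 16484163 per NC library and 13157202 to 17897056 per post-run library. All 8 tendon markers on the list used here, among them Scx, Tnmd and Col1a1, were expressed, and none of the 8 differed between groups past both thresholds in limma or in voom on the recovered reads (1 of 8 at an unadjusted limma p below 0.05, where 22.6% of all tested genes had one). One control library stood apart. In NC replicate 2, mitochondrial genes held 31.1% of the summed FPKM, against 16.3% to 21.9% in the other 7 libraries, and its FPKM values added up to 900138, against 554130 to 746030. FPKM stands for fragments per kilobase of transcript and per 1000000 mapped reads, and all levels here are in this unit as deposited. The deposited values were not scaled by the recovered reads alone. The library size they imply, set to the same mean, was 9831471 in NC replicate 2 and 17643281 in NC replicate 1. The median ratio of a gene's FPKM to its mean lay between 0.971 and 0.977 in every library.

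Markers of other cell types also moved with the groups in part. The summed level of 8 adipocyte markers ranged from 2596 to 4867 FPKM in NC and from 884 to 1893 in 0 h p.r., and 5 of the 8 were lower past both thresholds, against 124 of all 13863 tested genes (0.894%). The sum of 5 bone markers ranged from 297 to 465 FPKM in NC and from 545 to 2145 after running, and that of 4 cartilage markers from 7.40 to 88.1 and from 89.1 to 366. The sum of the 7 listed skeletal muscle markers lay between 4303 and 6269 FPKM in NC and between 864 and 28138 after running. None of the 4 tested bone, 4 cartilage or 7 muscle markers passed both thresholds in limma or voom, while 3, 3 and 1 of them had an unadjusted limma p below 0.05, against 22.6% of all tested genes. Both tested neutrophil markers passed, in opposite directions and at low levels: S100a9 was at 0.362 ± 0.257 FPKM in NC and 1.49 ± 0.298 after running, and Mpo at 1.88 ± 0.835 and 0.339 ± 0.0914 (SD, n = 4 each). Mpo reached the filter on low values through the controls alone. None of these marker genes was at 0 in all libraries. In bulk tissue, fewer cells of a type and less RNA per cell cannot be told apart, and the part these cell types had in the results that follow was not tested.

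Of the 6 genes, 3 were higher right after running: Mt1, Mt2A and Slc39a14. A gene passed when limma, fitted across all genes on log2(FPKM + 0.5), gave a Benjamini-Hochberg adjusted p below 0.05 together with a change of 2-fold or more. Mtf1 was below the filter on low values, so 5 genes were tested, of which 3 passed in the upward direction and none in the other. Among all 13863 tested genes, 250 passed in the upward direction (1.8%), and 374 passed in either direction (2.7%). For the same 3 genes the lowest 0 h p.r. library lay above the highest NC library, which was the case for 1130 of all tested genes (8.15%).

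Mt2A, the metallothionein with the highest FPKM in these libraries, was at 207, 431, 130 and 205 FPKM in NC replicates 1 to 4. Right after running it was at 463, 816, 787 and 522 FPKM. Every post-run library was above every control, but the gap was narrow: the lowest post-run library was 1.07 times the highest control, NC replicate 2. The means were 243 ± 130 and 647 ± 181 FPKM (SD, n = 4 each). The log2 fold change was 1.503 ± 0.36 (SE; 95% confidence interval from 0.70 to 2.31), or 2.83-fold, with a limma adjusted p = 0.0440. This call was close to the threshold. Leaving out 1 library at a time ended it in 6 of 8 cases, with limma adjusted p between 0.0641 and 0.130. It was retained when NC replicate 2 was dropped (log2 fold change 1.82, adjusted p = 0.0145) and when the fourth post-run library was dropped (1.59, adjusted p = 0.0453). The direction was the same in all 8 of these fits.

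Mt1, which codes for the close relative of the Mt2A protein, was at 9.54, 21.8, 7.18 and 8.46 FPKM in NC replicates 1 to 4, from 41 to 84 reads. In the post-run libraries it was at 30.5, 56.7, 53.8 and 37.9 FPKM, from 158 to 400 reads. The groups did not overlap, and the lowest post-run library was 1.40 times NC replicate 2, the one control that stood above the rest. The means were 11.7 ± 6.77 and 44.7 ± 12.5 FPKM (SD, n = 4 each). The log2 fold change of 1.98 ± 0.34 (SE; 95% interval from 1.22 to 2.74), or 3.93-fold, passed both thresholds with a limma adjusted p = 0.0138. It ranked 71 among the 13863 tested genes by log2 fold change. The call was lost when 0 h p.r. replicate 2 was left out (1.85, adjusted p = 0.0520). It was retained in the other 7 such fits, with limma adjusted p between 0.00458 and 0.0499. It came close to the threshold without 0 h p.r. replicate 3 (0.0499) and without NC replicate 1 (0.0486). Without NC replicate 2 the log2 fold change was 2.31, with an adjusted p = 0.00458.

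Slc39a14, the ZIP14 zinc importer, was at 14.7, 7.76, 11.9985 and 13.2 FPKM in NC replicates 1 to 4. It was at 32.8, 42.8, 48.8 and 25.7 FPKM in the post-run libraries. All post-run libraries were above all controls, with the lowest of them at 1.75 times the highest control. The means were 11.9 ± 2.98 and 37.5 ± 10.3 FPKM (SD, n = 4 each). The log2 fold change was 1.61 ± 0.24 (SE; 95% interval from 1.06 to 2.16), or 3.05-fold, with a limma adjusted p = 0.00819. It passed in all 8 fits with a library left out, with log2 fold changes from 1.42 to 1.77 and adjusted p between 0.00470 and 0.0339. It missed the threshold when every library was rescaled to the same FPKM total (1.62, adjusted p = 0.0531).

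**Figure D2:**
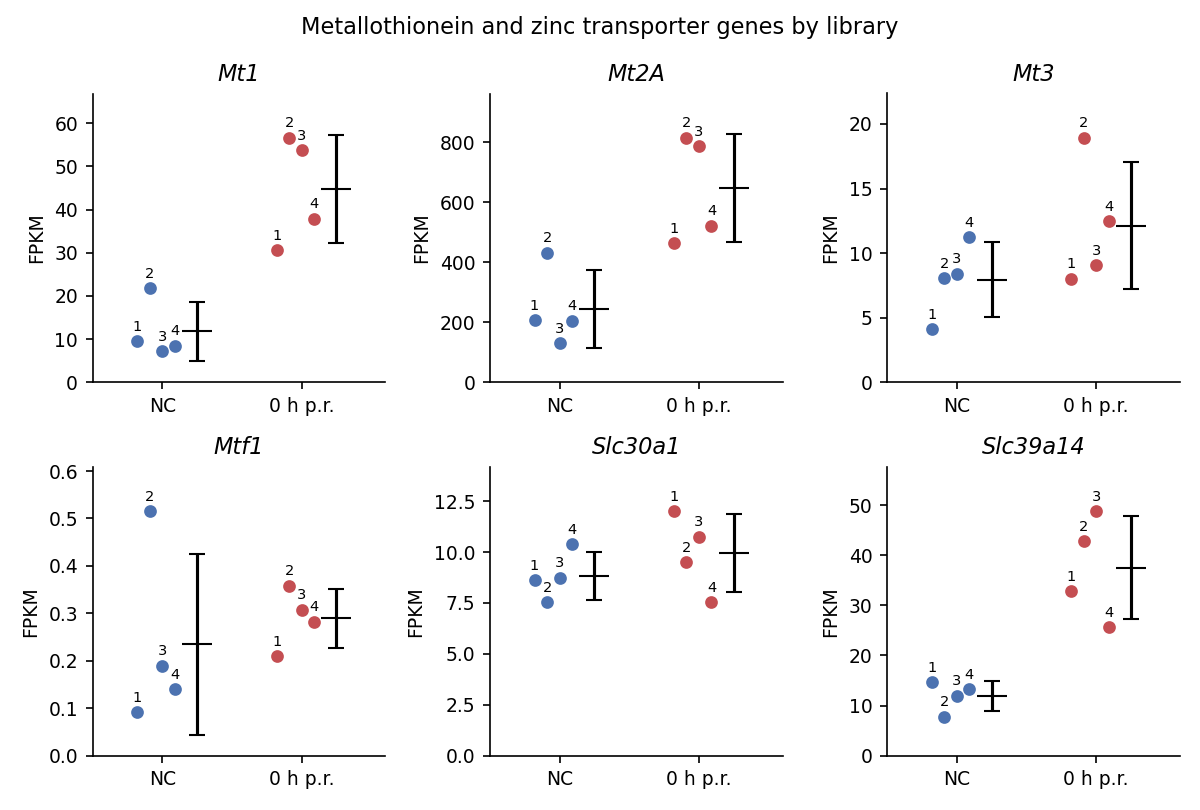
FPKM of the 6 genes in each library of NC and 0 h p.r., with the replicate number at each point and the mean ± SD (n = 4) beside each group; the vertical scale differs between panels. Mt1, Mt2A and Slc39a14 show no overlap between groups, while the ranges of Mt3, Mtf1 and Slc30a1 overlap.

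Mt3, the metallothionein best known from neurons, was at 4.09, 8.07, 8.41 and 11.2 FPKM in NC and at 8.01, 18.95, 9.07 and 12.5 FPKM in 0 h p.r. Only 2 of the 4 post-run libraries were above the highest control. The log2 fold change was 0.58 ± 0.33 (SE; 95% interval from -0.17 to 1.33; limma adjusted p = 0.346), an interval that holds both no difference and a fold change above 2. These values rest on 30 to 69 reads per library in NC and 44 to 142 after running.

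Slc30a1, the ZnT1 exporter, was at 8.62, 7.54, 8.74 and 10.4 FPKM in NC and at 12.02, 9.50, 10.8 and 7.53 FPKM in 0 h p.r. The groups overlapped over most of their range, with the lowest post-run library about level with the lowest control. The log2 fold change was 0.15 ± 0.16 (SE; 95% interval from -0.21 to 0.52; limma adjusted p = 0.641), so the interval leaves room for at most a 1.44-fold rise. The summed skeletal muscle markers, set beside Slc30a1 after the values were seen, were at 28138, 4861, 13280 and 864 FPKM in post-run replicates 1 to 4, the same order of libraries as Slc30a1. In NC the order was not the same: the markers were lowest in replicate 4 (4303 FPKM), where Slc30a1 was highest. The part of muscle in the spread of Slc30a1 was not tested.

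Mtf1, the gene of the metal sensor itself, was close to the limit of detection. It was at 0.0914, 0.516, 0.190 and 0.140 FPKM in NC, from 7 to 22 reads. After running it was at 0.210, 0.358, 0.308 and 0.283 FPKM, from 12 to 28 reads. All post-run libraries lay within the range of the controls, which NC replicate 2 set at the upper end. In the limma fit without a filter on low values its log2 fold change was 0.13 ± 0.18 (SE; 95% interval from -0.27 to 0.54; adjusted p = 0.726). Because 0.5 was added to each FPKM before taking logs, the fitted change of so low a gene is smaller than the ratio of its levels.

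Mt1 and Mt2A varied together from library to library. Within NC both were highest in replicate 2, followed by replicates 1, 4 and 3. Within 0 h p.r. both were highest in replicate 2, followed by replicates 3, 4 and 1. Slc39a14 had a different order, with replicates 1, 4, 3 and 2 in NC and replicates 3, 2, 1 and 4 after running, so that NC replicate 2 was the highest control for Mt1 and Mt2A and the lowest for Slc39a14. Mt3 was highest in replicate 4 in NC and in replicate 2 after running.

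**Figure D3:**
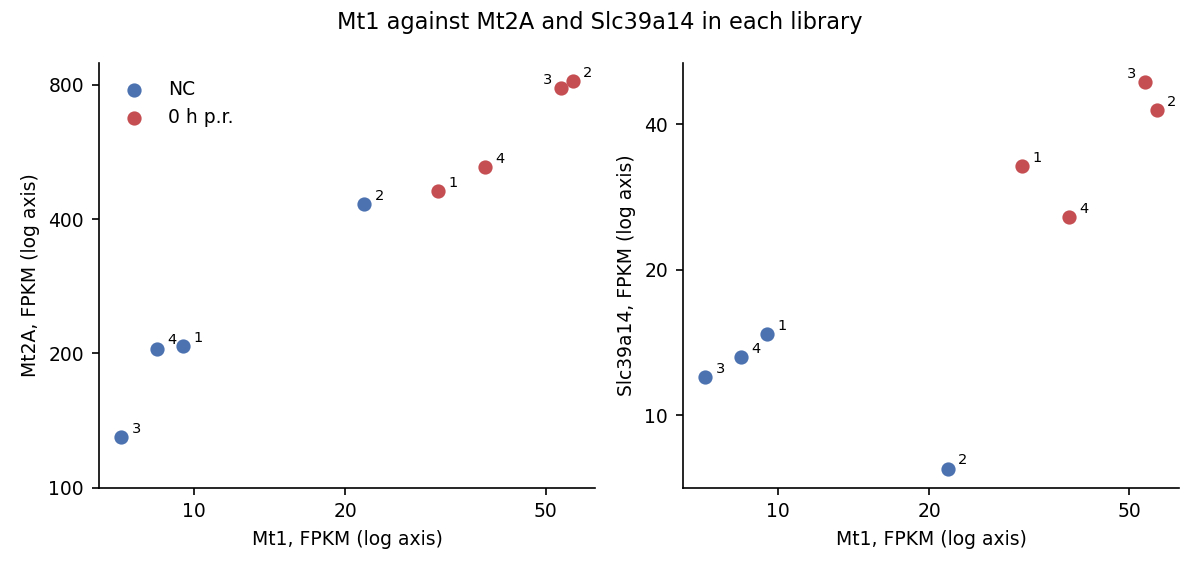
Level of Mt2A (left) and Slc39a14 (right) against that of Mt1 in each library, in FPKM on log axes, with the replicate number at each point. Mt2A follows Mt1 in the order of libraries within both groups, whereas NC replicate 2 is the highest control for Mt1 (21.8 FPKM) and the lowest for Slc39a14 (7.76 FPKM).

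The proportion of Mt2A to Mt1 also differed between groups. Mt2A was 21.7, 19.8, 18.1 and 24.2 times the level of Mt1 in NC replicates 1 to 4, and 15.1, 14.4, 14.6 and 13.8 times in the post-run libraries. The ranges did not overlap, with means of 21.0 ± 2.64 and 14.5 ± 0.563 (SD, n = 4 each). This ratio was chosen after its values were seen and was not tested. The ratio and the shares below rest on the level of Mt1, which is uncertain where reads match several copies. Together, Mt1, Mt2A and Mt3 amounted to 146 to 461 FPKM in NC and 501 to 892 FPKM after running. Mt2A made up 92.0% ± 2.13 of that sum at rest and 91.9% ± 0.655 of it after running (SD, n = 4 each). The share of Mt1 was 4.44% ± 0.515 at rest and 6.35% ± 0.213 after running, and that of Mt3 3.59% ± 2.096 and 1.74% ± 0.520.

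In NC, mean levels per transcript length fell from Mt2A (243 FPKM) to Slc39a14 (11.9), Mt1 (11.7), Slc30a1 (8.82), Mt3 (7.95) and Mtf1 (0.234). Each of the 4 genes between Mt2A and Mtf1 overlapped with its neighbours in this order, while Mt2A stood 20.4 times above Slc39a14 and Mt3 33.9 times above Mtf1. In 0 h p.r. the order was Mt2A (647 FPKM), Mt1 (44.7), Slc39a14 (37.5), Mt3 (12.1), Slc30a1 (9.95) and Mtf1 (0.290). There Mt1 and Slc39a14 overlapped, as did Mt3 and Slc30a1, and the first pair stood apart from the second, with Slc39a14 at 3.10 times the mean of Mt3. The place of Mt1 in both orders carries the uncertainty of its absolute level. Among all 15590 genes, Mt2A ranked between 223 and 474 by level in the controls and between 93 and 185 after running.

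Of the remaining metallothioneins, Mt4 and Mt1m were on the list used here, and Mt1f was not. Mt4 was not listed. Mt1m was at 1.504, 2.16, 0.729 and 0.719 FPKM in NC and at 1.81, 4.72, 4.80 and 2.66 FPKM after running, from 4 to 32 reads. Of its post-run libraries, 3 of 4 were above every control, and its log2 fold change of 1.17 ± 0.35 (SE) did not pass (limma adjusted p = 0.0856).

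Among the zinc transporters tested, Slc39a14 passed both thresholds, and Slc30a1 and the others did not. Of 9 other exporters of the Slc30a family, 6 were listed and 5 tested, and none passed in either direction in limma, where 2.7% of all tested genes did, and none by voom. At an unadjusted limma p below 0.05 there was 1 of 5, where 22.6% of all tested genes had one. Their median log2 fold change was 0.17, against -0.0014 over all tested genes. The largest values belonged to Slc30a4 (0.41, limma adjusted p = 0.129), Slc30a6 (-0.27, adjusted p = 0.425) and Slc30a7 (0.22, adjusted p = 0.392), which code for carriers of intracellular compartments. Of 13 other importers of the Slc39a family, 11 were listed and 10 tested, again with none past both thresholds in limma or voom, 2 of 10 at an unadjusted limma p below 0.05, close to the share over all tested genes, and a median of 0.091. Slc39a8, the closest relative of Slc39a14, was at 5.79 ± 1.35 FPKM in NC and 10.1 ± 3.66 FPKM after running (SD, n = 4 each; log2 fold change 0.71, limma adjusted p = 0.115). Slc39a6 had a log2 fold change of 0.54 (adjusted p = 0.0538) and Slc39a3 one of -0.31 (adjusted p = 0.243).

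**Figure D4:**
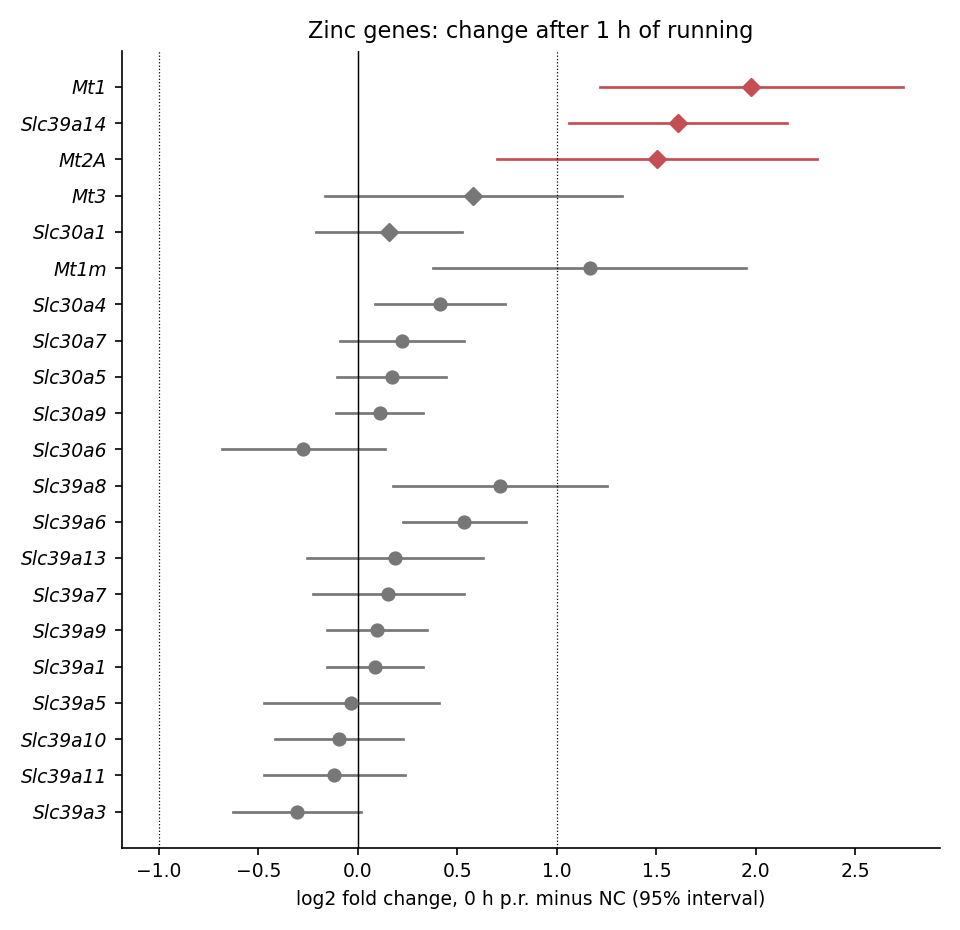
Log2 fold change (0 h p.r. minus NC) with its 95% interval for the tested genes of the set (diamonds), Mt1m and the other zinc exporters and importers (circles), with dotted lines at a fold change of 2 in either direction. Red marks genes past both thresholds, which here are Mt1, Slc39a14 and Mt2A.

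Genes of copper and iron handling were compared because metallothioneins bind copper and ZIP14 carries iron. Of 17 tested, 1 passed, where 2.7% of all tested genes did so in either direction. Hmox1, which codes for the haem-degrading enzyme heme oxygenase 1, rose from 14.1 ± 3.06 to 83.0 ± 41.7 FPKM (SD, n = 4 each), a log2 fold change of 2.33 with an SE of 0.43 (limma adjusted p = 0.0192). For the list as a whole the median was 0.0083, with 10 genes above 0 and 7 below. Aco1 was lower after running but short of a 2-fold change (log2 fold change -0.75, limma adjusted p = 0.0495).

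Glucocorticoids and interleukin 6 are known inducers of metallothioneins, and the known target genes of each were read from the same fit. Of 11 tested glucocorticoid targets, 3 rose and none fell past both thresholds, where 1.8% of all tested genes rose, and the median log2 fold change was 0.58. By sign alone 6 were above 0 and 5 below. The 3 that passed were Dusp1 (1.52, limma adjusted p = 0.0156), a phosphatase of MAP kinases, Errfi1 (1.32, adjusted p = 0.0278), an inhibitor of the EGF receptor, and Cdkn1a (1.11, adjusted p = 0.0233), an inhibitor of the cell cycle. Of the 8 that did not pass, Nfkbia (0.89, limma adjusted p = 0.0506), Sgk1 (0.84, adjusted p = 0.0373) and Per1 (0.58, adjusted p = 0.115) had positive values. Pdk4 (-0.73, adjusted p = 0.121), Fkbp5 (-0.45, adjusted p = 0.379), Tsc22d3 (-0.43, adjusted p = 0.262), Zbtb16 (-0.40, adjusted p = 0.517) and Klf9 (-0.021, adjusted p = 0.958) had negative ones. The part of glucocorticoids in the metallothionein levels was not tested.

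Of 12 tested STAT3 and acute phase targets, 8 rose and none fell past both thresholds, where 1.8% of all tested genes rose, and the median log2 fold change was 1.38. The largest value was that of Il6, the cytokine itself, at 0.138 ± 0.142 FPKM in NC and 31.3 ± 14.3 after running (SD, n = 4 each). Il6 reached the filter on low values through the post-run libraries alone, so its call is not independent of the filter. Without it, 7 of 11 rose, with a median of 1.195. Next were Socs3 (3.21 ± 0.33, SE; limma adjusted p = 0.00151), a feedback inhibitor of interleukin 6 signalling, and Junb (2.88 ± 0.15; adjusted p = 9.7e-05), a subunit of AP-1. The 4 that did not pass were Pim1 (0.99, limma adjusted p = 0.00689) and Stat3 (0.86, adjusted p = 0.0232), both under a 2-fold change, Il6st (0.18, adjusted p = 0.645) and Lcn2 (-0.15, adjusted p = 0.833). The part of interleukin 6 in the levels of the metallothioneins and Slc39a14 was not tested.

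The genes outside the set most like each member were sought by Pearson's r of log2(FPKM + 0.5) over the 8 libraries. This is a description in which the group difference and the shared libraries both enter. Values this high are easily reached when the highest are picked from all tested genes over only 8 libraries. The nearest genes of Mt3 and Slc30a1, which did not pass, also reached 0.958 and 0.977. For Mt1 they were Zfp207 (0.989), Pcna (0.989) and AC128848.1 (0.988). For Mt2A they were Bcl10 (0.995), Pcna (0.993) and Inpp1 (0.980), so Pcna, a clamp of DNA replication, appeared for both. Mt1 and Mt2A, as members left out of the search, had an r of 0.985 with each other. That was above the r of Inpp1 with Mt2A but below those of Bcl10 and Pcna with Mt2A and of every gene named for Mt1. For Slc39a14 they were Stat3 (0.991), Dnajc5 (0.988) and Foxf1 (0.985). Stat3 codes for the transcription factor that interleukin 6 activates and had a log2 fold change of 0.86 (limma adjusted p = 0.0232), short of a fold change of 2. For Mt3 they were Rad18 (0.958), LOC102551606 (0.943) and Rnase4 (0.928), and for Slc30a1 they were Rasip1 (0.977), Epm2a (0.974) and Adam11 (0.971).

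**Figure D5:**
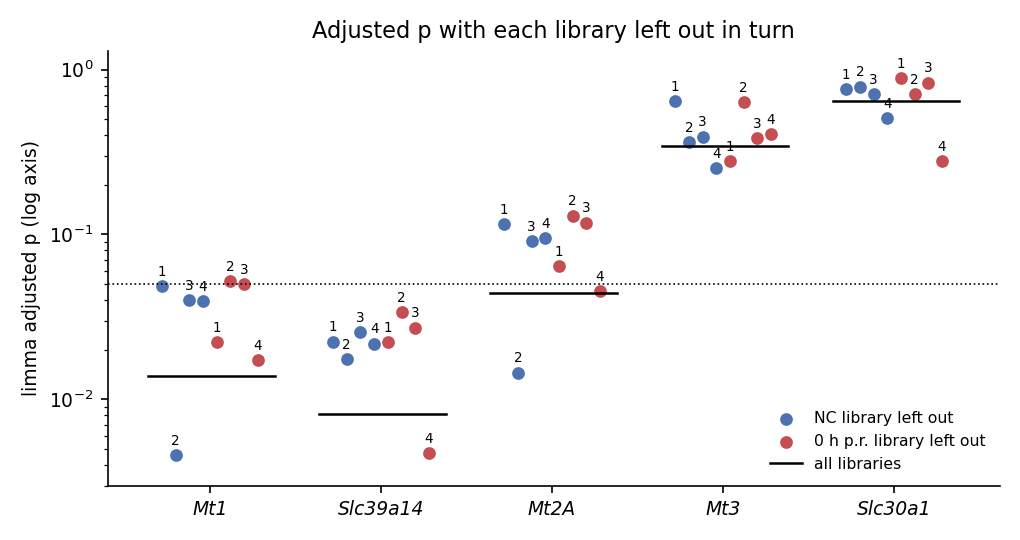
Limma adjusted p of the 5 tested genes when each library was left out in turn, on a log axis, with the replicate number of the library left out at each point, a bar at the value from all 8 libraries and a dotted line at 0.05. Slc39a14 stays below the line in all 8 fits and Mt1 in 7, whereas Mt2A is above it in 6, and Mt3 and Slc30a1 are above it throughout.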

How the data were processed

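The authors sequenced polyA RNA of 8 stranded libraries, aligned reads to Rnor_6.0 with HISAT2 2.1.0 and counted them with featureCounts 1.6.3 (submitters' processing notes). Values were deposited as FPKM per gene, and the authors' columns of fold changes and p-values, made with DESeq2 1.30.1, were not used. Since the deposited unit is FPKM, limma 3.58.1 (R 4.3.3; lmFit, then eBayes with trend, two-sided) was run on log2(FPKM + 0.5). Genes below an FPKM of 0.5 in more than 4 of the 8 libraries were left out (1727, leaving 13863 tested), and p-values were adjusted over all tested genes by the Benjamini-Hochberg method. Thresholds were an adjusted p of 0.05 and a fold change of 2. The steps between FPKM values gave whole reads (within 0.01 read) for 15590 of 15590 genes, and these are the read numbers given; they were also analysed with voom as an alternative.

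The labels do not say that each library came from a separate animal, so p-values measure the spread between these libraries. Named genes were all members and the 3 genes outside the set most correlated with each tested member. Pathway list genes past both thresholds were named, or the 3 with the largest absolute log2 fold change where none or more than 3 passed. The genes of the glucocorticoid and STAT3 lists that did not pass, Aco1, S100a9 and Mpo were added after their values were seen. Tendon markers are named as examples. The members and lists were chosen with earlier results of these data known. The scripts were tested on simulated data. Alternatives were other pseudocounts, filters and scalings, array weights, a test against a minimum fold, a replicate block and leaving out each library. Promoters came from RefSeq (GRCr8).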

Additional observations from a re-analysis of the deposited data

Results flagged for a closer look

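In NC replicate 2, Mt1 was at 21.8 FPKM, far above the other 3 control libraries, which lay between 7.18 and 9.54 FPKM. The gap to the nearest library was 0.838 of the range of the group, above Dixon's 95% critical value for 4 samples. The check was made on FPKM and not on the log2(FPKM + 0.5) of the limma fit, where this library was at 4.48 against 2.94 to 3.33. Of the 12 groups of values checked on FPKM, Mt1 in NC was the only 1 past the critical value, and chance alone passes it in about 1 in 20 groups. With each library scaled to the same FPKM total, Mt1 in this library was at 24.2 per 1000000, against 12.4 to 17.0 in the other controls, and the gap of 0.608 of the range no longer passed the critical value. The same library, in FPKM, was the highest control for Mt2A, at 431 FPKM, with a gap of 0.743 of the range, which did not reach the critical value. It is also the library whose FPKM values add up to 900138 and that has 31.1% of its summed FPKM in mitochondrial genes, and the part of the mitochondrial share in its metallothionein levels was not tested. Without it, the log2 fold change of Mt1 was 2.31 instead of 1.98.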

How the results depend on the processing

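Mt1, Mt2A, Mt3, Slc30a1 and Slc39a14 kept the sign of their log2 fold change under every alternative run. The number of members past both thresholds was 3 with all libraries, between 1 and 3 with 1 library left out (1 without 0 h p.r. replicate 2), and 0 in limma's treat test against a fold of 1.5, which asks for a change larger than that fold (3 members at an unadjusted p below 0.05) and gave adjusted p = 0.152 for Mt1, 0.660 for Mt2A and 0.141 for Slc39a14. Over all genes, 374 passed both thresholds, against 171 with TPM scaling, 60 with treat, 793 at any fold change and between 195 and 516 with a library left out. With the replicate number as a block the count was 212, and Mt2A no longer passed (adjusted p = 0.0742), while Mt1 (0.0229) and Slc39a14 (0.0428) did. The labels name nothing but the number that same-numbered libraries have in common. Their deviations from the group means correlated at -0.14, -0.071, 0.072 and 0.0056, and those of differently numbered libraries at -0.25 to 0.23. So few correlations cannot show whether same-numbered libraries were handled together. Mtf1 (7 to 28 reads per library) and Mt1m (4 to 32) rest on few reads, and the effect of greater depth on them was not tested.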
